A study of Homo sapiens with 24 samples.

Results

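The 9 genes of polyamine and glutamine metabolism described here, *GLUL*, *ODC1*, *OAZ1*, *AZIN1*, *SAT1*, *AMD1*, *SRM*, *SMS* and *ARG2*, were followed through a time series of glucocorticoid exposure. They were chosen by name, with earlier results of these data known. The counts of their 35 transcripts (of 119207 listed) were summed per gene, which makes the genes 9 of 33127 with summed counts. All 9 had enough counts to be tested, among 15337 genes. The cells were A549, an established human line from a lung adenocarcinoma, grown in medium with 10% fetal bovine serum. They were exposed to 100 nM dexamethasone (dex), a synthetic glucocorticoid that activates the glucocorticoid receptor (GR), or to the vehicle ethanol (EtOH) at 0.02% of the medium by volume. Exposure lasted 1, 3, 5, 7, 9 or 11 h, with 2 libraries of poly-A RNA for each of these 12 groups. The labels call the libraries of a group biological replicates 1 and 2 without naming separate cultures, so the p-values measure the spread between these libraries. All groups are of 1 cell line, and each dex group was compared with the EtOH group of the same hour.

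Polyamines (putrescine, spermidine and spermine) are small cations that bind nucleic acids and that growing cells need. *ARG2*, the mitochondrial arginase, makes ornithine from arginine, and *ODC1*, ornithine decarboxylase, turns ornithine into putrescine as the rate-limiting step. *AMD1*, S-adenosylmethionine decarboxylase, supplies the aminopropyl groups with which *SRM* (spermidine synthase) and *SMS* (spermine synthase) lengthen the chain, and *SAT1*, an acetyltransferase, marks spermidine and spermine for export or breakdown. Antizyme (*OAZ1*) sends the ODC1 protein to the proteasome, and the antizyme inhibitor *AZIN1* competes with ODC1 for antizyme. *GLUL*, glutamine synthetase, joins glutamate and ammonia into glutamine and is a known target of glucocorticoids in lung and muscle. Several of these enzymes are also set by translation and by protein turnover, which RNA counts do not show.

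The RNA of 3 of the 9 genes was higher with dex over several hours: *GLUL* from 5 to 11 h, up to 1.77-fold, *ODC1* from 5 to 11 h, up to 1.60-fold, and *SAT1* from 5 to 9 h, up to 1.62-fold. *AMD1* was higher at 3 h, *SMS* was lower at 5 h and *ARG2* was lower at 7 h, each at that single time point. *OAZ1*, *AZIN1* and *SRM* passed the threshold at no time point. A gene was called when its adjusted p was at most 0.1 in edgeR's quasi-likelihood test at that hour, with Benjamini-Hochberg adjustment over all 15337 genes. By this rule 1.06%, 14.1%, 25%, 28.2%, 19.8% and 9.12% of all genes were called from 1 to 11 h, in either direction. The share of all genes called over several hours was not counted.

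The promoter sequences of the 3 genes called higher over several hours are shown here because their starts carry different short elements. They come from RefSeq on GRCh38.p14, read 5′ to 3′ on the strand of the gene, with the elements searched in capitals and positions counted back from the listed start. The elements were the GR half-site AGAACA, the E-box CACGTG, the cAMP element TGACGTCA, the GC box GGGCGG and the CCAAT box, on both strands, within 250 bases before the start. *SAT1* is shown over the whole window, chrX:23782923-23783172 on the plus strand. *ODC1* has 2 listed starts, and for each the bases outside annotated exons are shown, chr2:10448505-10448577 for the outer start and chr2:10448013-10448120 for the inner one, both on the minus strand. The *GLUL* window lies within an exon of longer transcripts, so only the 30 bases from -66 to -37 that hold its nearest CCAAT box and GC box are shown, chr1:182391827-182391856 on the minus strand.
SAT1: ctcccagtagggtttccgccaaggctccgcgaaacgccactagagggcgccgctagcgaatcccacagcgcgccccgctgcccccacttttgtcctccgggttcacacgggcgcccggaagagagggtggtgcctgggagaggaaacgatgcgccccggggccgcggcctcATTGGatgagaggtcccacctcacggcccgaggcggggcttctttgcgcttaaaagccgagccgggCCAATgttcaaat
ODC1 outer start: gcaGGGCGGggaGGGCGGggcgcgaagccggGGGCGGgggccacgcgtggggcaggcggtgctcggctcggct
ODC1 inner start: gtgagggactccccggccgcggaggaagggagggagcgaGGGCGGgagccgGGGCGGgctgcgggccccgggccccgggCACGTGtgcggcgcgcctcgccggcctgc
GLUL: CCAATcagggcaccggGGGCGGccccgggc

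The *SAT1* window held 2 CCAAT boxes and no GC box, while each *ODC1* window held 4 GC boxes and no CCAAT box. The inner *ODC1* window also held 1 E-box, the element read by MYC and its partners, and the outer one none. *GLUL* also has 2 listed starts. The window of the start shown held 2 CCAAT boxes and 2 GC boxes, and that of the other start held 2 GC boxes and no CCAAT box. Windows of 8 members were searched, all but *AZIN1*. The half-site of GR was in none of them, and this says only that these letters are not in these windows. Over all 35116 listed windows of the same length, 12.4% held the half-site, 6.34% the E-box, 42.6% the GC box and 32% the CCAAT box. Of the other members, *ARG2* held 2 matches of the cAMP element, which 1.65% of all windows held, and *SRM* held 1 E-box. These matches describe the letters alone, and no binding was measured in these libraries.

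Between 6708864 and 13748598 reads per library were counted on transcripts. The known glucocorticoid targets *FKBP5*, *TSC22D3* and *PER1* were called higher with dex at 5, 6 and 6 of the 6 time points. Of the epithelial markers, the keratins *KRT8* and *KRT18* stood between 1431 and 5521 CPM (reads of a gene scaled to a common library total) and were called higher at 5 time points each, and *CDH1* was called higher at 2. The keratin *KRT19* (at most 21.1 CPM) was called lower at 2 time points and *EPCAM* (at most 11.1 CPM) at 3. Of the alveolar type II markers, *SFTPA1* was at 0 in every library, *SFTPC*, *SFTPB* and *NKX2-1* were at most at 0.628 CPM, and *ABCA3* had between 23.9 and 48.5 CPM. The immune marker *PTPRC*, the endothelial marker *VWF* and the fibroblast markers *COL3A1* and *PDGFRB* were at most at 1.52 CPM, against higher levels of *CD68* (at most 6.01 CPM) and *COL1A1* (5.04 to 22.4 CPM, called lower at 3 time points and higher at 1). The part of these markers in the results below was not tested. The replicates of dex at 11 h stood apart most, with a chi-square per degree of freedom of 17.5 between them, against 2.58 to 13.3 in the other groups. Their difference followed the GC content of the genes (Spearman's rho -0.63 over 10658 genes, which share both libraries). A GC trend between replicates was not confined to this group. In the other groups rho ranged from -0.569 (dex at 1 h) to 0.413 (EtOH at 5 h). Results at 11 h are also given without each of its dex libraries.

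**Figure D1:**
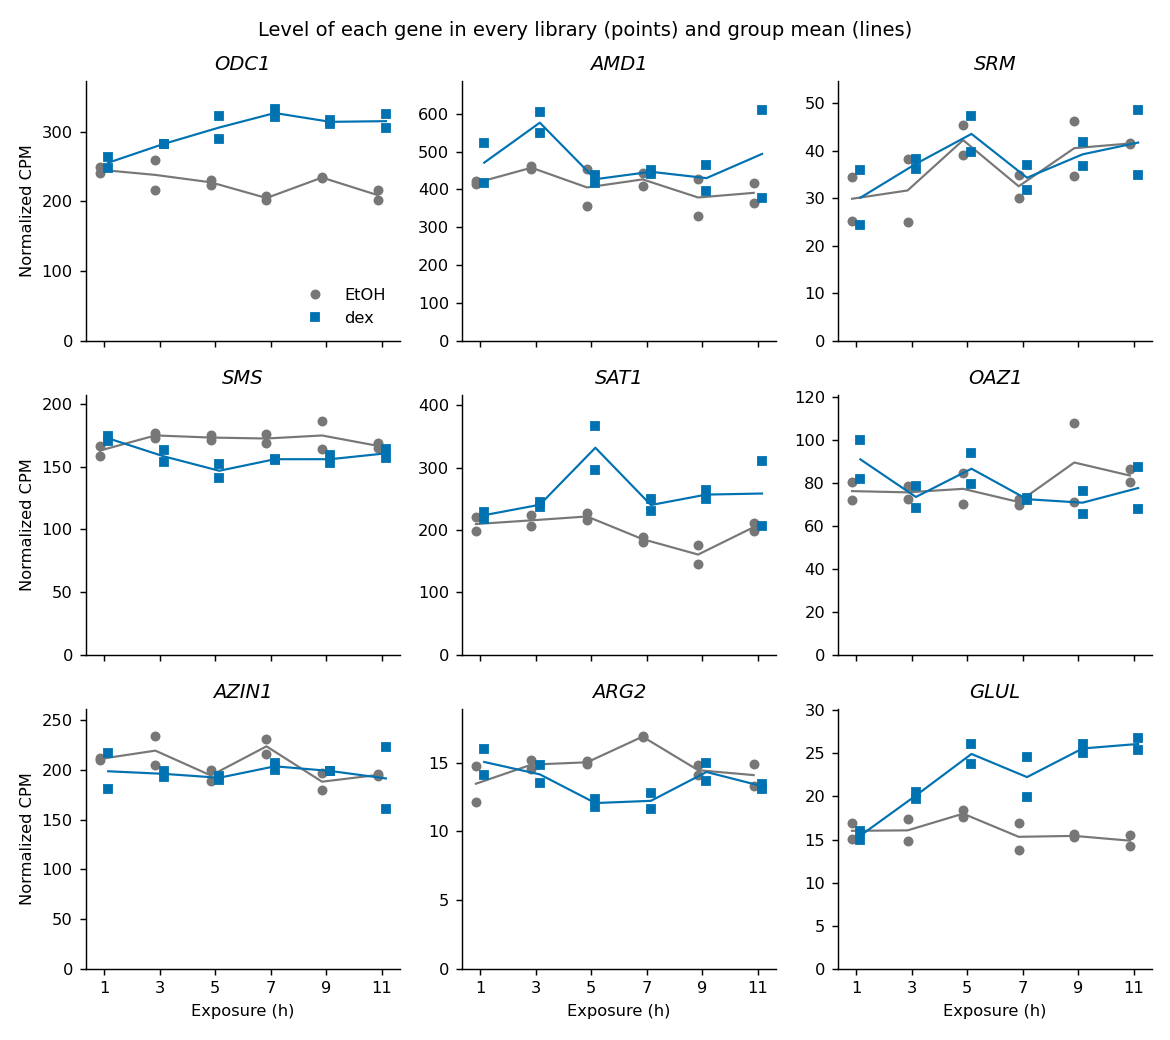
Normalized CPM (vertical axis, from 0) against hours of exposure (horizontal axis) for each of the 9 genes; points are single libraries (circles EtOH, squares dex) and lines join the means of 2 libraries. The dex libraries of *GLUL* and *ODC1* lie above the EtOH libraries from 3 to 11 h, and those of *SAT1* from 3 to 9 h, while the libraries of *OAZ1* and *SRM* intermingle from 3 to 11 h.

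*ODC1* lies on chromosome 2 of GRCh38 from 10439968 to 10448504 on the minus strand. At 1 h it had 250 and 241 CPM in the EtOH libraries and 263 and 248 with dex (CPM here and below is scaled by the TMM method). At 3 h it had 260 and 217 CPM with EtOH and 283 and 282 with dex. The groups overlapped at 1 h and no longer at 3 h, when the log2 fold change of 0.25 (standard error 0.10) missed the threshold (edgeR, adjusted p = 0.118). It was called with a correction for the GC trend of each library (added after seeing the data), without and with a replicate block (edgeR, adjusted p = 0.0843 and 0.0754), and without EtOH replicate 1, at 0.38 (edgeR, adjusted p = 0.0572), while the lowest value without a library was 0.12. At 5 h *ODC1* had 231 and 224 CPM with EtOH and 290 and 323 with dex. At 7 h it had 202 and 208 CPM with EtOH and 322 and 333 with dex, the widest gap of the series. The log2 fold changes were 0.43 (standard error 0.10; edgeR, adjusted p = 0.00123) at 5 h and 0.68 (standard error 0.07; edgeR, adjusted p = 5.21e-09) at 7 h. At 9 h it had 235 and 233 CPM with EtOH and 311 and 317 with dex. At 11 h it had 217 and 202 CPM with EtOH and 325 and 306 with dex. The enzyme's RNA was thus still higher at the end of the series, by 0.44 (standard error 0.10; edgeR, adjusted p = 0.0113) at 9 h and 0.61 (standard error 0.13; edgeR, adjusted p = 0.00997) at 11 h. The call at 9 h was lost without either dex library and that at 11 h without either EtOH library. The log2 fold change stayed between 0.43 and 0.66 in these fits. Without either dex library of 11 h it was 0.57 and 0.64, and both were called.

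In order of mean level over the 12 groups, *ODC1* was highest with dex at 7 h (327 CPM), then with dex at 11, 9, 5 and 3 h, and lowest with EtOH at 7 h (205 CPM). Neighbouring groups from dex at 7 h down to dex at 5 h overlapped, and dex at 5 h did not overlap dex at 3 h (283 CPM). Below dex at 3 h came dex at 1 h (256 CPM) and then the EtOH groups.

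*GLUL*, on chromosome 1 from 182381704 to 182392206 on the minus strand, had the lowest mean of the 9 per transcript length, with between 98 and 335 counts in a library. At 1 h it had 15.1 and 16.9 CPM with EtOH and 16.0 and 14.9 with dex. At 3 h it had 17.4 and 14.8 CPM with EtOH and 20.6 and 19.7 with dex. Both dex libraries were then above both EtOH libraries, but the log2 fold change of 0.33 (standard error 0.15) was not called (edgeR, adjusted p = 0.195). At 5 h *GLUL* had 17.6 and 18.4 CPM with EtOH and 26.1 and 23.7 with dex. At 7 h it had 13.8 and 16.9 CPM with EtOH and 24.6 and 19.9 with dex. It was higher with dex by 0.47 (standard error 0.15; edgeR, adjusted p = 0.0171) at 5 h and by 0.56 (standard error 0.14; edgeR, adjusted p = 0.00339) at 7 h on the log2 scale. At 9 h it had 15.2 and 15.6 CPM with EtOH and 26.1 and 25.0 with dex. At 11 h it had 14.2 and 15.5 CPM with EtOH and 25.4 and 26.7 with dex. These are log2 fold changes of 0.75 (standard error 0.15; edgeR, adjusted p = 0.00378) and 0.83 (standard error 0.18; edgeR, adjusted p = 0.0130), the largest among the 9 genes at both hours. DESeq2 did not call the change at 5 h (adjusted p = 0.122). The call was lost at 5 and 7 h without dex replicate 1 (edgeR, adjusted p = 0.143 and 0.284) and at 11 h without either EtOH library (edgeR, adjusted p = 0.298 and 0.159). Without either dex library of 11 h the log2 fold change was 0.87 and 0.78, and both were called.

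The 5 highest group means of *GLUL* were those of dex from 3 to 11 h, in the order 11, 9, 5, 7 and 3 h, from 26.1 to 20.1 CPM, and each overlapped its neighbour. The next was EtOH at 5 h (18 CPM), which overlapped neither neighbour. Dex at 1 h (15.5 CPM) stood among the remaining EtOH groups, which ranged from 14.9 to 16.1 CPM.

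*SAT1*, on chromosome X from 23783173 to 23786226 on the plus strand, had the highest mean of the 9 per transcript length. At 1 h it had 221 and 198 CPM with EtOH and 229 and 218 with dex. At 3 h it had 207 and 224 CPM with EtOH and 237 and 244 with dex. Neither difference was called, with log2 fold changes of 0.09 and 0.16 (edgeR, adjusted p = 0.965 and 0.343). At 5 h *SAT1* had 216 and 227 CPM with EtOH and 296 and 367 with dex. At 7 h it had 189 and 181 CPM with EtOH and 249 and 231 with dex. At 9 h it had 176 and 145 CPM with EtOH and 264 and 250 with dex. The highest dex level was thus at 5 h, and the lowest EtOH level at 9 h. The log2 fold changes were 0.58 (standard error 0.11; edgeR, adjusted p = 3.33e-05) at 5 h, 0.38 (standard error 0.08; edgeR, adjusted p = 0.000201) at 7 h and 0.70 (standard error 0.12; edgeR, adjusted p = 0.00117) at 9 h. These 3 calls held without any library in turn. At 11 h *SAT1* had 199 and 211 CPM with EtOH, and the dex libraries, at 311 and 206, lay on either side of them. The log2 fold change of 0.35 (standard error 0.17) was not called (edgeR, adjusted p = 0.331), and it was 0.03 without dex replicate 1 and 0.61 without dex replicate 2, when it was called (edgeR, adjusted p = 3.26e-07).

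*AMD1*, on chromosome 6 from 110874770 to 110895713 on the plus strand, had the most reads of the 9 genes. At 3 h it had 453 and 462 CPM with EtOH and 549 and 604 with dex, so that the groups did not overlap. Its log2 fold change of 0.34 (standard error 0.09) was called (edgeR, adjusted p = 0.0186), and the call was lost without EtOH replicate 1 or dex replicate 2 (edgeR, adjusted p = 0.157 and 0.174) and in 1 fit over the 24 libraries (edgeR, adjusted p = 0.301). At the other 5 hours the groups overlapped, and the log2 fold change was between 0.07 and 0.36. Without a library in turn it went from -0.0034 to 0.326 at 1 h and from 0.0238 to 0.387 at 9 h. At 11 h the dex libraries had 610 and 377 CPM, against 417 and 365 with EtOH, and the log2 fold change of 0.36 went to -0.03 without dex replicate 1 and 0.65 without dex replicate 2. *AMD1* has the lowest GC content of the 9 genes (38%) and *SRM* the highest (63.5%). In the dex libraries of 11 h *SRM* went the other way, with 35.0 CPM in replicate 1 and 48.5 in replicate 2. The part of GC content in these differences was not tested. With the GC correction *AMD1* was called at 3, 7 and 11 h, with log2 fold changes of 0.46, 0.18 and 0.44 (edgeR, adjusted p = 0.000413, 0.0693 and 0.0563). Of its transcripts, AMD1-201, AMD1-203 and AMD1-204 were called higher at 3 h (0.37, 0.38 and 0.35). At 9 h, when the summed gene was not called, AMD1-202 (0.44) and AMD1-206 (0.66) were (edgeR, adjusted p = 0.0872 and 0.0338).

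Of the synthases that lengthen the chain, only *SMS* was called, and only at 5 h. *SMS*, on chromosome X from 21940573 to 21994835 on the plus strand, had 171 and 175 CPM with EtOH and 141 and 152 with dex at 5 h. It was lower by -0.24 on the log2 scale (standard error 0.10; edgeR, adjusted p = 0.0935), a call that was lost with DESeq2 (adjusted p = 0.202) and without any of the 4 libraries. Its dex libraries lay below its EtOH libraries at every hour from 3 to 11 h, with log2 fold changes between -0.24 and -0.03, and above them at 1 h. At 9 h the value went from -0.24 to -0.05 without a library in turn. *SRM*, on chromosome 1 from 11054584 to 11060024 on the minus strand, ranged from 25.0 to 46.4 CPM with EtOH and from 24.4 to 48.5 with dex, with medians of 36.6 and 36.9. Its groups overlapped at every hour, and no log2 fold change was beyond 0.23 in size with every library in. Without a library in turn it went from -0.0431 to 0.578 at 3 h.

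*ARG2*, on chromosome 14 from 67619798 to 67651720 on the plus strand, was scarce, with at most 200 counts in a library. At 5 h it had 15.1 and 14.9 CPM with EtOH and 11.8 and 12.3 with dex, without overlap, but the log2 fold change of -0.32 (standard error 0.17) was not called (edgeR, adjusted p = 0.224). At 7 h it had 16.9 and 16.9 CPM with EtOH and 11.6 and 12.8 with dex, and the log2 fold change of -0.47 (standard error 0.15) was called (edgeR, adjusted p = 0.0211). DESeq2 did not call it (adjusted p = 0.186), nor did edgeR without dex replicate 1 (adjusted p = 0.252). By 9 h the groups overlapped again, with 14.8 and 14.1 CPM with EtOH and 13.7 and 14.9 with dex. *ARG2* shares exon sequence with *VTI1B* on the opposite strand, and whether strand was used in counting is not given in the sources used here.

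The regulators of the ODC1 protein were not called at any hour in the test of 2 against 2 libraries, but other settings and single libraries made calls. *OAZ1*, on chromosome 19 from 2269509 to 2273490 on the plus strand, ranged from 69.8 to 108 CPM with EtOH and from 65.3 to 100.0 with dex. Its log2 fold change was between -0.31 (standard error 0.19, at 9 h) and 0.24 (standard error 0.13, at 1 h). The value at 9 h turned on the EtOH libraries, which had 71.1 and 108 CPM: it was -0.58 without replicate 1, when it was called (edgeR, adjusted p = 2.64e-07), and 0.02 without replicate 2. It was also called without a filter and with a replicate block (edgeR, adjusted p = 0.0623 and 0.0319). At 1 h *OAZ1* was called with the block and the GC correction together (0.32; edgeR, adjusted p = 0.00716) and without dex replicate 1 (0.39; edgeR, adjusted p = 0.0707), and at 11 h without dex replicate 2 (-0.30; edgeR, adjusted p = 0.0623). *AZIN1*, on chromosome 8, ranged from 179 to 234 CPM with EtOH and from 160 to 223 with dex, and its log2 fold change was between -0.16 and 0.10. It was called lower at 7 h without EtOH replicate 2 (-0.18; edgeR, adjusted p = 0.0584) and at 11 h without dex replicate 1 (-0.26; edgeR, adjusted p = 0.0443). Its transcript AZIN1-201 was called lower at 7 h (-0.23, standard error 0.09; edgeR, adjusted p = 0.0711).

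Counted over the series, 14 of the 54 tests of a member at an hour passed the threshold. At 1 h this was 0 of 9, against 1.06% of all genes (edgeR; 0 of the 9 had an unadjusted p under 0.05, and DESeq2 also called 0). Higher calls were made for 0.639% and lower calls for 0.417% of all genes at that hour. At 3 h 1 member was higher and 0 lower, against 14.1% of all genes called, 8.42% higher and 5.65% lower. At 5 h 3 members were higher and 1 lower, against 25% of all genes called, 12.4% higher and 12.6% lower. At 7 h the members' counts were again 3 and 1, against 28.2% of all genes called, 14.7% higher and 13.5% lower. At 9 h 3 members were higher and 0 lower, against 19.8% of all genes called, 10.8% higher and 8.95% lower. At 11 h 2 members were higher and 0 lower, against 9.12% of all genes called, 5.8% higher and 3.33% lower. Both dex libraries lay outside the range of the EtOH libraries for 2, 6, 5, 6, 5 and 3 of the 9 genes from 1 to 11 h, against 34.6%, 51.7%, 55.7%, 58.7%, 55.1% and 45.8% of all genes. The shares of members were not tested against those of all genes. The median log2 fold change of the 9 genes was 0.08, 0.16, 0.07, 0.08, 0.10 and 0.02 from 1 to 11 h, and that of all genes was within 0.02 of 0 at each hour.

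**Figure D2:**
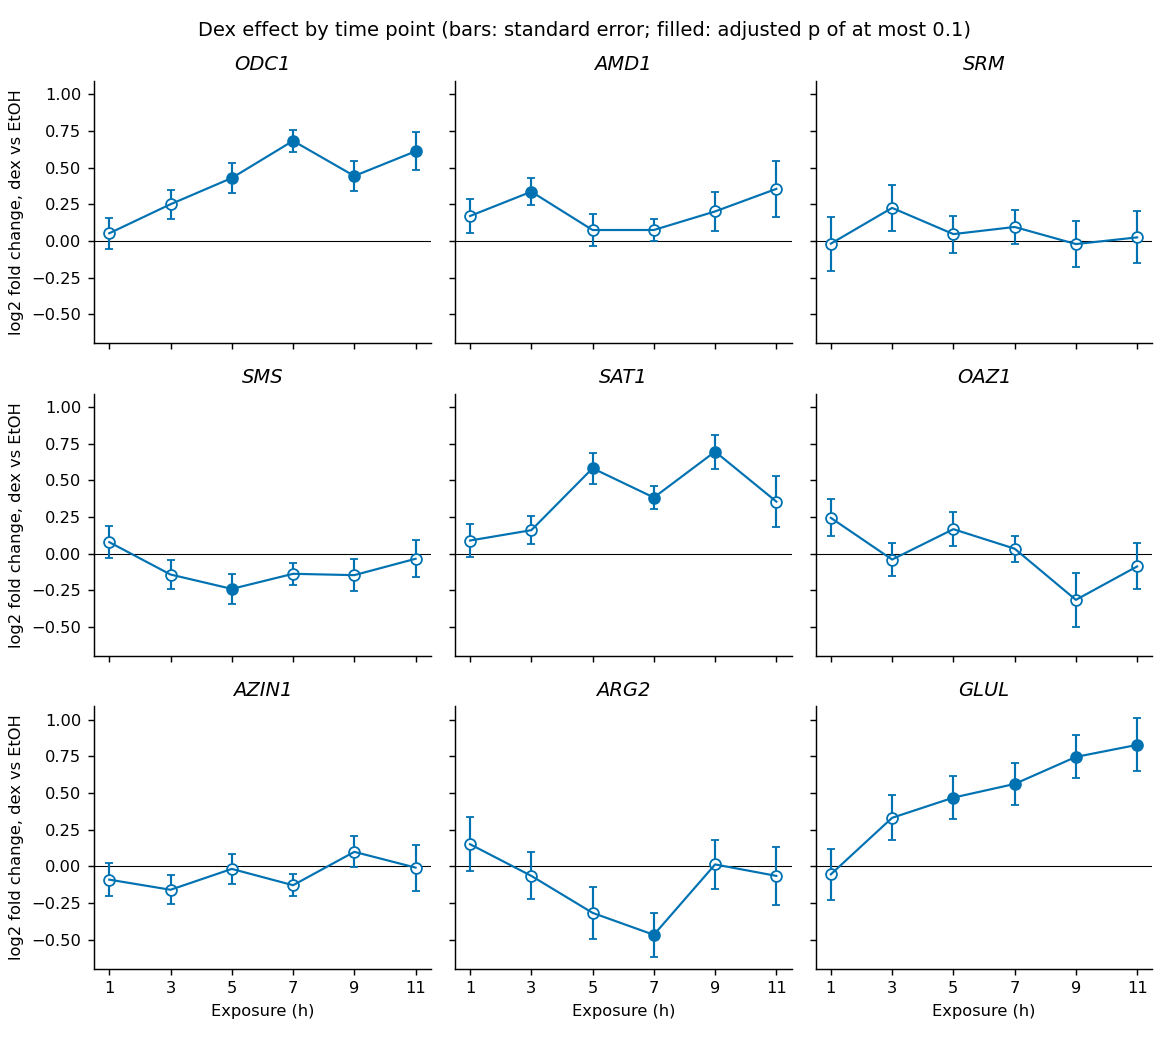
The dex effect as a log2 fold change against EtOH (vertical axis) by hours of exposure (horizontal axis) for each gene, with bars of 1 standard error from edgeR; filled points passed the adjusted p of 0.1 and open points did not. *GLUL* and *ODC1* carry filled points from 5 to 11 h and *SAT1* from 5 to 9 h, and *AMD1*, *SMS* and *ARG2* carry 1 each.

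Whether the effect of dex on a gene differed between the hours was tested with the interaction of treatment and time in 1 fit over the 24 libraries. It was called for 2 of the 9 genes, *ODC1* (edgeR, adjusted p = 0.0116) and *GLUL* (edgeR, adjusted p = 0.0404), against 15.4% of all genes. For *SAT1* it was not called (edgeR, adjusted p = 0.161), but it was with a replicate block, without a filter, with the GC correction and with block and correction (edgeR, adjusted p = 0.0671, 0.0112, 0.0925 and 0.0342). It was also called in 4 of the 24 fits without a library: EtOH replicate 1 of 9 h, dex replicate 1 of 5 h and either dex library of 11 h (edgeR, adjusted p = 0.0808, 0.0868, 0.00343 and 0.0101). The call for *GLUL* was lost without EtOH replicate 2 or dex replicate 2 of 1 h (edgeR, adjusted p = 0.168 and 0.109), and that for *ODC1* held without any library in turn. The effect at 11 h was then set against that at 5 h, and 0 of the 9 genes differed, against 2.91% of all genes (edgeR; no member had an unadjusted p under 0.05, and DESeq2 also called 0). For *GLUL* the effect at 11 h was 0.34 above that at 5 h on the log2 scale (standard error 0.20; edgeR, adjusted p = 0.541), and for *ODC1* it was 0.16 above (standard error 0.13). For *SAT1* the difference, 11 h minus 5 h, was -0.24 (standard error 0.19), between effects of 0.35 and 0.58, and without dex replicate 1 of 11 h it was called (edgeR, adjusted p = 0.0397).

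In the vehicle alone, *SAT1* was the only member whose level differed between the hours (edgeR, adjusted p = 0.0721; 3.3% of all genes were called). Its EtOH means were 210, 216 and 222 CPM at 1, 3 and 5 h, 185 at 7 h, 161 at 9 h and 205 at 11 h. The call missed a threshold of 0.05, and it was lost without 9 of the 12 EtOH libraries in turn. For *ODC1* and *GLUL* the vehicle's time course was not called (edgeR, adjusted p = 0.333 and 0.788).

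Levels of different genes can be compared only per transcript length. As counts per kilobase, scaled as CPM, over the 12 EtOH libraries, *SAT1* had 213 ± 25.8 (SD, n = 12), *AMD1* 152 ± 15.7 and *ODC1* 139 ± 15.3. *SMS* had 116 ± 5.52, *AZIN1* 84.6 ± 6.05 and *OAZ1* 81.7 ± 11.2 on the same scale. *SRM* had 48.7 ± 11.0, *ARG2* 7.23 ± 0.638 and *GLUL* 3.76 ± 0.340. This order is one of means. It also rests on counts summed over the transcripts of a gene, and the handling of reads shared between them is unknown here. For *GLUL* 4 transcripts were summed, which may share reads, while *ARG2* has 1. The part of shared reads in the order of the genes was not tested. The ranges over libraries of *SAT1*, *AMD1* and *ODC1* overlapped each other, as did those of *AMD1*, *ODC1* and *SMS*. The range of *OAZ1* overlapped those of *SMS* and *AZIN1*, while every library of *SRM* lay above every library of *ARG2*, and those of *ARG2* above those of *GLUL*. These SDs span 6 hours and so hold both the spread between replicates and that between hours.

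The deposited rows are transcripts, and the rows of *GLUL*, *ODC1* and *SAT1* were also tested singly, against all 56380 transcripts tested. How a read that matches several transcripts of a gene was placed is not given in the sources used here. Over the 35 rows of the 9 genes, each tested at 6 hours, 37 transcript tests were called, and DESeq2 called 19. Rows of 1 gene may share reads, so these tests are not independent. Of all transcripts, 0.417%, 7.1%, 14.7%, 16.2%, 10.4% and 5.06% were called from 1 to 11 h. All 3 *ODC1* transcripts had a positive log2 fold change from 3 to 11 h. ODC1-201, the longest, was called from 5 to 11 h, with 0.42, 0.65, 0.47 and 0.55 (standard errors 0.11, 0.08, 0.13 and 0.15). ODC1-203, a short transcript of 494 bases, was called at 0.70 at 5 h, 0.76 at 7 h and 0.82 at 11 h (standard errors 0.17, 0.11 and 0.23). At 9 h it was at 0.36 (standard error 0.15), the lowest of the 3 transcripts, and not called (edgeR, adjusted p = 0.175).

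The 4 *GLUL* rows held similar numbers of reads, between 1099 and 1216 over the 24 libraries. From 3 to 11 h all 4 were positive, and 1 was called at 5, 7 and 11 h and 3 at 9 h. GLUL-201 was at 0.96 at 11 h (standard error 0.28; edgeR, adjusted p = 0.0661). Among the *SAT1* rows, the 4 were called together at 5 h (0.48 to 0.60) and at 9 h (0.61 to 0.80). SAT1-201, with 5667 reads the row with the fewest, was also called at 3 h (0.53, standard error 0.14; edgeR, adjusted p = 0.0136) and at 11 h (0.91, standard error 0.20; edgeR, adjusted p = 0.00923). At these hours the other 3 rows were at 0.01 to 0.25 and at 0.15 to 0.52, and none was called. A difference between rows of 1 gene was not tested.

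**Figure D3:**
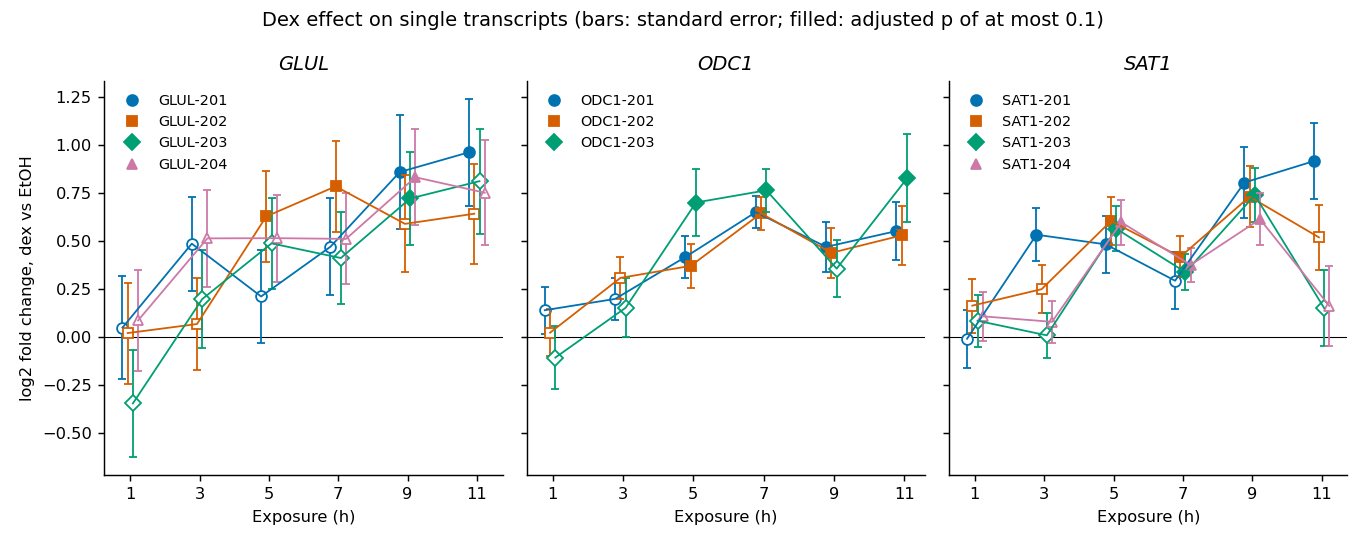
The dex effect as a log2 fold change against EtOH (vertical axis) by hours of exposure (horizontal axis) for single transcripts of *GLUL*, *ODC1* and *SAT1*, with bars of 1 standard error; filled points passed the adjusted p of 0.1. All transcripts shown lie above 0 from 3 to 11 h, and SAT1-201 lies above the other *SAT1* transcripts at 3 and 11 h.

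The genes whose level ran most like that of *ODC1*, *GLUL* and *SAT1* over the 24 libraries were found by Pearson's correlation of log2 CPM among all genes tested. They are a description, since the libraries share treatment, hour and GC trend. For *ODC1* they were *CILP* (r = 0.96), *BFAR* (0.95) and *GOLPH3* (0.95). For *GLUL* they were *MMP15* (r = 0.95), *UNC5B* (0.94) and *AQP3*, an aquaporin (0.93). *SAT1* had looser neighbours, *RNF146* (r = 0.84), *PARP9* (0.82) and *SPTSSA* (0.82).

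Other genes of the 2 pathways were taken from lists of transport and breakdown of polyamines, of the methionine cycle and of glutamine and glutamate use. Of 13 further polyamine genes tested, 1 was called lower at 1 h (*SMOX*) and 1 at both 5 and 11 h (*ATP13A3*). At 3 h 2 were lower, at 7 h 1 was higher and 1 lower, and at 9 h 1 was higher and 3 lower. Of all genes, 1.06%, 14.1%, 25%, 28.2%, 19.8% and 9.12% were called from 1 to 11 h. The median log2 fold change of the 13 genes was 0.09, 0.03 and -0.23 at 5, 7 and 9 h. *ATP13A3*, a polyamine transporter, fell from 324 and 337 CPM with EtOH to 145 and 147 with dex at 5 h (log2 fold change -1.18, standard error 0.10; edgeR, adjusted p = 9.06e-13) and was called lower from 3 to 11 h. *SMOX*, spermine oxidase, which turns spermine back into spermidine, was lower at 1 h (-0.57, standard error 0.12), at 3 h (-0.84, standard error 0.11) and at 9 h (-0.66, standard error 0.13). It was not called at 5 and 7 h, when its log2 fold change was positive (0.32 and 0.13), or at 11 h (-0.39). *EIF5A2*, a translation factor that carries a modified residue made from spermidine, was higher at 7 and 9 h (0.39 and 0.71).

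Among 19 tested enzymes of glutamine, glutamate and ornithine, 1 was higher and 2 lower at 3 h, and 5 were higher and 5 lower at 5 h. The counts were 4 and 4 at 7 h, 2 and 2 at 9 h, and 1 and 1 at 11 h. Of all genes, 14.1%, 25%, 28.2%, 19.8% and 9.12% were called from 3 to 11 h. The shares of these lists were not tested against those of all genes. Of the amidotransferases that use glutamine, *GMPS* (-0.62 and -0.49), *ASNS* (-0.60 and -0.47) and *PPAT* (-0.30 and -0.34) were lower at 5 and 7 h. *CTPS1* (0.35 and 0.54) and *GFPT2* (0.49 and 0.67) were higher at the same hours, as was glutamate dehydrogenase, *GLUD1* (0.41 and 0.35). *PRODH*, proline dehydrogenase, was higher from 3 to 11 h, by 2.08 at 3 h (standard error 0.34), from 7 and 18 counts with EtOH to 49 and 52 with dex. Of 8 tested genes of the methionine cycle and salvage, 1 was called, *MAT2A*, which makes S-adenosylmethionine, lower at 7 h (-0.21) and higher at 9 h (0.50). In bulk RNA, fewer cells of a type and less RNA per cell cannot be told apart.

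**Figure D4:**
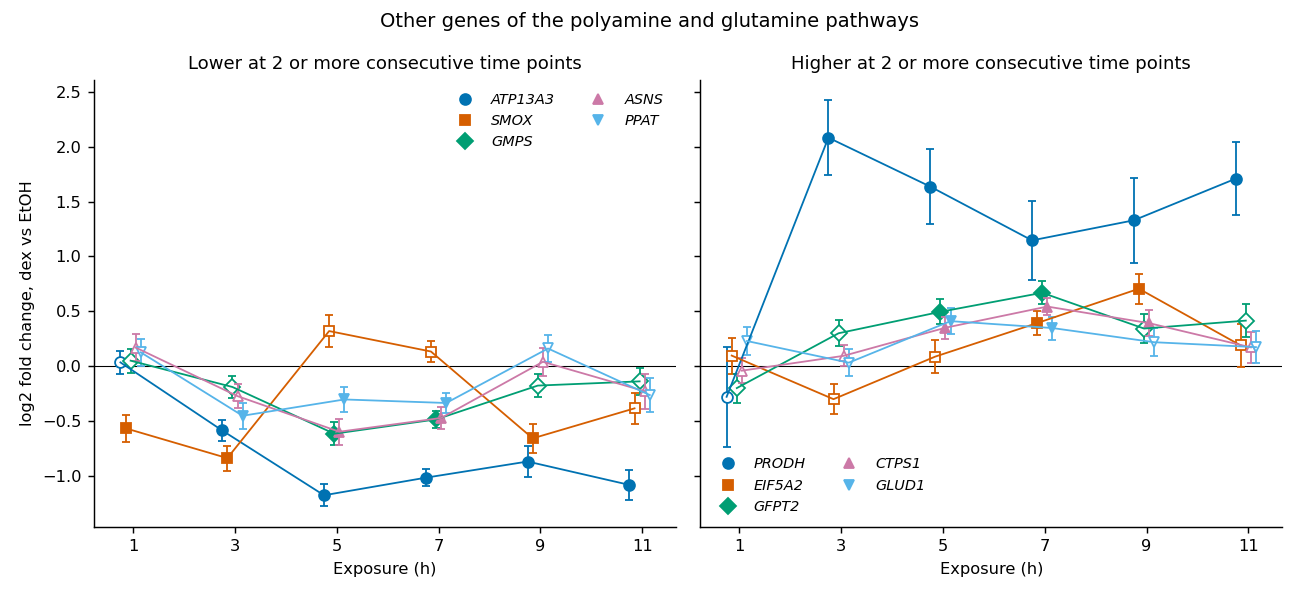
The dex effect as a log2 fold change against EtOH (vertical axis) by hours of exposure (horizontal axis) for 10 other pathway genes called at 2 or more consecutive hours in the same direction, lower on the left and higher on the right, with bars of 1 standard error; filled points passed the adjusted p of 0.1. *ATP13A3* stays lower and *PRODH* higher from 3 to 11 h, while *SMOX* is lower at 1, 3 and 9 h.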

How the data were processed

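Poly-A RNA of 24 A549 libraries was analysed. The authors mapped single-end reads to GENCODE transcripts with Bowtie, per the labels on hg19, and SAMtools gave the reads on each transcript, so the deposited values are raw counts, not scaled by depth or length. Rows were matched to genes by transcript identifier, versions removed, with GENCODE release 29 (GRCh38), and summed per gene. This placed 94.1% of the counts, and the rest entered library sizes only. Counts were tested with edgeR 4.0.16 (R 4.3.3), with TMM scaling, filterByExpr over the 12 groups, robust quasi-likelihood F-tests of 2 against 2 libraries at each hour, Benjamini-Hochberg adjustment and a threshold of 0.1. Each standard error was the size of the log2 fold change over the root of its F value. The scripts were tested on simulated data. Alternatives were DESeq2 1.42.0, its size factors, other filters, a threshold of 0.05, 1 fit over 24 libraries, a block for the replicate number, unmatched transcripts kept and leaving out each library. A GC correction (lowess of log2 counts on GC content) was chosen after seeing the data. The groups' replicates differed by more than sampling noise in every group, so no pair was counted as repeats of 1 library. The treatment text in the labels gives 1 h throughout, so the duration field was used. The paper's methods state triplicates, and the labels give 2 libraries a group.

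The members and lists were chosen with earlier results of these data known. Named besides the 9 members were 3 glucocorticoid targets, pathway genes called at 2 or more consecutive hours (up to 6 in each direction by fold change), the 3 nearest patterns of members called so, and cell type markers. A gene that this rule would name is not reported here, though the counts over its list include it.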

Additional observations from a re-analysis of the deposited data

Results flagged for a closer look

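The effect of dex differed between the time points for *ODC1* (edgeR's quasi-likelihood test of the interaction, adjusted p = 0.0116) and for *GLUL* (edgeR, adjusted p = 0.0404). The log2 fold change of *ODC1* was 0.05 at 1 h and 0.68 at 7 h, and both dex libraries lay above both EtOH libraries at 5 of 6 time points. For *GLUL* it was -0.05 at 1 h and 0.83 at 11 h, also with dex above EtOH at 5 of 6 time points.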

How the results depend on the processing

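Groups hold 2 libraries, and calls of scarce members (*GLUL*, with 98 to 335 counts in a library) and of well-counted ones (*ODC1*, with 1631 to 4247) were lost without a library. The 14 calls of members became 11 with DESeq2, 13 at a threshold of 0.05 or in 1 fit over 24 libraries, and 15 without a filter. The cause of the changes below was not tested. Member values kept their direction and side of the threshold in 508 comparisons with other settings and in 162 without a library. Calls were gained in 10 and 12 of these and lost in 5 and 15, and values reversed in 17 and 27, where the main value was called in none.

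Counts of all genes called moved by over 1.5 times at 1 h from 162 to 247 without a filter and 248 with the GC correction. DESeq2 called 1208 genes at 3 h in place of 2159, 2348 at 5 h in place of 3834, 2464 at 7 h in place of 4324 and 1831 at 9 h in place of 3033. At 11 h, 1 fit over 24 libraries called 2478 in place of 1399. DESeq2 called 19 transcript tests of members in place of 37. The interaction of treatment and time was called for 4 members with the GC correction, against 2833 of all 15337 genes. The EtOH time course was called for 2 members without a filter and 0 at a threshold of 0.05. Without a library in turn, genes called ranged from 88 to 691 at 1 h, from 1290 to 2598 at 3 h, from 2756 to 3333 at 5 h, from 2006 to 4821 at 7 h, from 1056 to 5297 at 9 h and from 720 to 4978 at 11 h. The interaction was then called for 1 to 4 members, the EtOH time course for 0 to 2, and the effect at 11 h against 5 h for 0 to 1. Genes called for the interaction (2360) ranged from 1654 to 3968 without a library. Those for the EtOH time course (506) ranged from 12 to 2036, and were 1784 without a filter, 252 with the GC correction, 176 with block and correction and 124 at a threshold of 0.05. Those for 11 h against 5 h (446) ranged from 194 to 975, and were 793 with the GC correction, 850 with block and correction and 244 at 0.05. A group left with 1 library was assumed to vary like the other groups.

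Replicate numbers did not pair the libraries by the rule used (correlations of deviations from -0.07 to 0.16 over the 6 hours). With a replicate block, 583 genes were called at 1 h, 15 member tests in all, and the interaction for 3 members. The interaction was then called for 2772 of all 15337 genes. With the block and the GC correction together, 683 genes were called at 1 h and 2180 at 11 h. The interaction was called for 5 members, against 3116 of all genes, and the EtOH time course for 0 members, against 176.

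Other settings turned these signs. *ARG2* at 9 h went from 0.01 to -0.0093 without a filter, -0.0039 with 10 counts in every library and -0.0056 in 1 fit. With the GC correction, without and with the block, *SRM* was at 0.0777 and 0.0916 at 1 h, -0.0433 and -0.0501 at 5 h, 0.216 and 0.212 at 9 h and -0.126 and -0.127 at 11 h. *AZIN1* was at 0.0119 and 0.0118 at 5 h and 0.0553 and 0.0477 at 11 h, and *OAZ1* at -0.0378 and -0.0382 at 7 h. Without a library in turn, signs turned within these ranges. At 1 h they were -0.129 to 0.0274 for *GLUL*, -0.232 to 0.0374 for *AZIN1*, -0.0034 to 0.33 for *AMD1* and -0.30 to 0.25 for *SRM*. At 3 h they were -0.141 to 0.0525 for *OAZ1*, -0.0431 to 0.578 for *SRM* and -0.14 to 0.00054 for *ARG2*. At 5 h they were -0.0545 to 0.0219 for *AZIN1*, -0.0905 to 0.263 for *AMD1* and -0.0890 to 0.174 for *SRM*, and at 7 h -0.0343 to 0.203 for *SRM*. At 9 h they were -0.582 to 0.0171 for *OAZ1*, -0.217 to 0.202 for *SRM* and -0.0616 to 0.0696 for *ARG2*. At 11 h they were -0.296 to 0.0894 for *OAZ1*, -0.26 to 0.20 for *AZIN1*, -0.0276 to 0.649 for *AMD1*, -0.24 to 0.25 for *SRM*, -0.0785 to 0.00055 for *SMS* and -0.15 to 0.0081 for *ARG2*.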

Other observations

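*PYCR3*, an enzyme of proline synthesis, was higher at 5 h (log2 fold change 0.45; edgeR, adjusted p = 0.0538), *GFPT1*, the rate-limiting enzyme of hexosamine synthesis, was lower at 5 h (-0.37; edgeR, adjusted p = 0.00639), and *ALDH4A1*, which follows *PRODH* in proline breakdown, was lower at 9 h (-0.80; edgeR, adjusted p = 0.00879). *OAZ2*, a second antizyme, was lower at 9 h (-0.31; edgeR, adjusted p = 0.0856). Each was called at a single time point, so these 4 genes were named after their values were seen.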
